A study of Homo sapiens with 2 samples.

Results

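The genes for oxidative phosphorylation were compared in Ca9-22 cells after lentiviral transfer of DLEU1, a long noncoding RNA, and in Ca9-22 cells given a control vector. They were taken by gene name: every name on the array that started with NDUF, UQCR, ATP5 or COX and a digit, and SDHA, SDHB, SDHC, SDHD and CYC1. After 6 antisense and pseudogene names were left out, 105 genes of the 43317 gene names on the array remained. They were 37 subunits of complex I, 4 of complex II, 9 of complex III, 20 of complex IV, 16 of complex V, and 19 genes named after a complex that assemble it or act beside it. NDUFA4, named as a complex I gene, was counted with complex IV, where its protein is known to sit.

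Ca9-22 is an established oral squamous cell carcinoma (OSCC) cell line. The vector was pLenti6/V5-DEST, with the full-length DLEU1 cDNA in one group and empty in the other. Both groups were kept under 6 mg/ml blasticidin for 2 weeks, and each was a selected population of cells rather than a clone, as far as the sources state. Total RNA of each group was put on 1 Agilent 1-colour array after Cy3 labelling, so there were 2 arrays, no replicates and no test. All differences compare 1 culture with 1 other culture, as DLEU1 vector minus control vector on the log2 scale. A level is the log2 intensity of a probe relative to the 75th percentile of its array, and it can be compared between the arrays for a probe but not between probes.

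Oxidative phosphorylation passes electrons from NADH and succinate along complexes of the inner mitochondrial membrane to oxygen, and the proton gradient built on the way drives ATP synthesis. Complex I oxidises NADH, complex II oxidises succinate, complex III passes the electrons to cytochrome c, complex IV reduces oxygen, and complex V is the ATP synthase. Most subunits are encoded in the nucleus and imported, while a few, among them the catalytic core of complex IV, are encoded in mitochondrial DNA. Complex II has no mitochondrial DNA-encoded subunit.

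The brightest of 3 DLEU1 probes had a log2 level of 3.17 on the control vector array and of 5.91 on the other, 6.67-fold higher. The 2 other probes were higher with the DLEU1 vector by 0.85 and 0.54. All 8 squamous epithelial markers examined, KRT5, KRT14, KRT6A, KRT17, TP63, CDH1, EPCAM and DSG3, were detected on both arrays, while PECAM1, COL1A2, COL3A1, DCN and CD3E were detected on neither. Of 6 fibroblast markers, COL1A1 (levels of 0.47 and 4.47, control vector first) and PDGFRB (-3.51 and -3.84) were detected on both arrays and LUM with the DLEU1 vector only. Of 3 endothelial markers, VWF (-2.33 and 1.37) and CDH5 (-2.14 and -2.73) were detected on both, as were the leukocyte markers PTPRC (-1.74 and -1.28) and CD14 (-1.96 and -3.56). What part cells with these markers had in the differences was not tested. Over the 20246 gene names detected on both arrays the median difference was -0.07. On rows 1 to 130 and columns 32 to 47 of the array lay a strip in which 26.4% of the probes detected with the control vector were at least 2-fold lower with the DLEU1 vector, against 12.0% elsewhere. The values of 6 members came from a probe with a spot in it.

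The sequences shown first are the promoters of SDHA, SDHB and SDHD of complex II and of ATP5G1, which had the largest difference in complex V. SDHC was not in the promoter table. They are the 250 bases before the RefSeq start of each gene (GRCh38.p14), 5′ to 3′ on the gene's strand. Capitals mark matches, on either strand, to the letters of the nuclear respiratory factor NRF1 (GCGCA and GCGC with any 1 base between), of GABP, also called nuclear respiratory factor 2 (CCGGAAG), of estrogen-related receptors (AAGGTCA) and to CCAAT. SDHA held 4 matches to the NRF1 letters, and SDHB and SDHD each held a GABP match. SDHD also held 1 NRF1 match, and SDHB 1 match to the receptor letters. Whether these letters bear on the differences between the arrays was not tested.
SDHA (chr5:218070-218319, plus strand): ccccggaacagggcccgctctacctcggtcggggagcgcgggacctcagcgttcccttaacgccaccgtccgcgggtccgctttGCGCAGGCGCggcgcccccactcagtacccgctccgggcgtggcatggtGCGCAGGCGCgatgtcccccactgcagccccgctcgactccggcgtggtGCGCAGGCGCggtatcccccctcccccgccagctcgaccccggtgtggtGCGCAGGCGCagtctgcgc
SDHB (chr1:17054033-17054282, minus strand): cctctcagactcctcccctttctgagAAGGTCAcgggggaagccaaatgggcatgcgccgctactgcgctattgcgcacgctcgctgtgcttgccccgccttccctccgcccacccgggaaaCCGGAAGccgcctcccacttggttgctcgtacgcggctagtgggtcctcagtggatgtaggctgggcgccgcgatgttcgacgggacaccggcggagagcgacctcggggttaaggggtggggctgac
SDHD (chr11:112086623-112086872, plus strand): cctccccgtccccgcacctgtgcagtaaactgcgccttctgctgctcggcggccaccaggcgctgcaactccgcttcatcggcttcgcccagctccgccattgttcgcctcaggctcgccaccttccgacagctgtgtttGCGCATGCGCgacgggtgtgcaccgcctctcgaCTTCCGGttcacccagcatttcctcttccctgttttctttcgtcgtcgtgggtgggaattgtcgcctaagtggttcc
The promoter of ATP5G1, a gene for the c ring of the ATP synthase, held no match to the NRF1 or GABP letters and 4 to CCAAT.
ATP5G1 (chr17:48892537-48892786, plus strand): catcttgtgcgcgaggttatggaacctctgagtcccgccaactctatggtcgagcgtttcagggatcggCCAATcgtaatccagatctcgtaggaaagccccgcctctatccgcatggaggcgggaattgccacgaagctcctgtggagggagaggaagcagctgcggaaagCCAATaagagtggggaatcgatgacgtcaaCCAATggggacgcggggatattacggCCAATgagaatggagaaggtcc

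Of the 105 genes, 99 were detected on both arrays. COX18 and COX4I2 were detected with the control vector only, and COX6A2, COX7A1, COX7B2 and NDUFA4L2 on neither array. Among the 99, 88 (88.9%) were below 0, where 54.2% of all 20246 genes were below 0. Their median difference was -0.45, and the quartiles were -0.69 and -0.17. A total of 38 members (38.4%) were at least 1.5-fold lower, against 22% of all genes. Only 1 member, COX8C, measured with 1 dim probe, was at least 1.5-fold higher, against 18.4% of all genes.

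The shift was broad and small rather than large in a few genes. At least 2-fold lower were 8 members (8.08%), a share near the 9.78% of all genes, so this count by itself is no result about the members. None of the 99 was at least 2-fold higher (0, against 9.18% of all genes). The distance of the members' median from that of all genes was -0.38. After normalization that depends on the signal of a probe it was smaller: -0.21 after quantile normalization and -0.22 after loess. Below 0 were then 73 and 66 of the 99 members, against 10443 and 10020 of all 20246 genes. In bulk RNA, fewer cells of a type and less RNA per cell cannot be told apart.

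**Figure D1:**
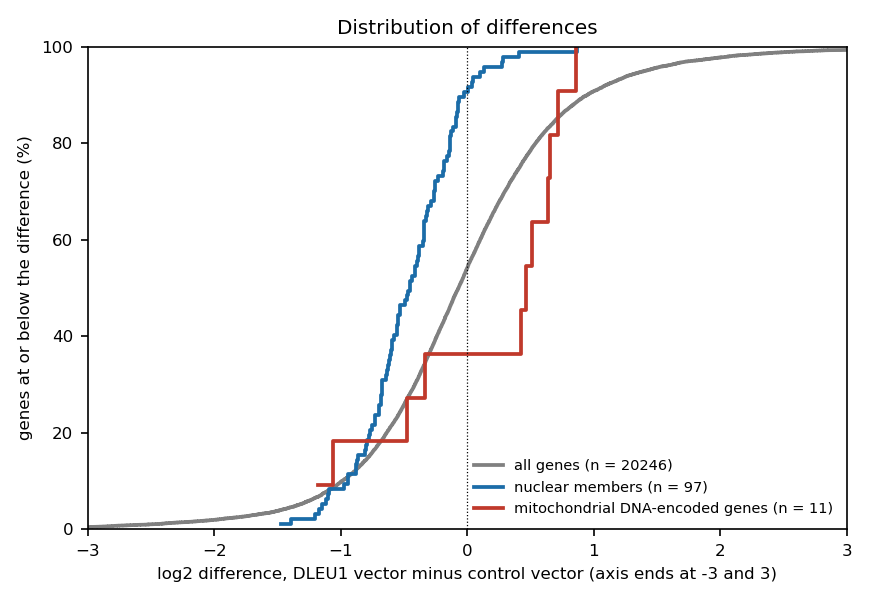
Cumulative share of genes (y axis, %) at or below a log2 difference, DLEU1 vector minus control vector (x axis), for all 20246 genes detected on both arrays, the 97 nuclear members and the 11 mitochondrial DNA-encoded genes. The curve of the nuclear members is left of that of all genes from about -1 upward and crosses 0 with 88 of 97 genes below it, while 7 of the 11 mitochondrial DNA-encoded genes lie above 0.

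Beside this shift, genes of proliferation and of keratinocyte differentiation differed by far more between the same arrays. Of 17 proliferation genes, 17 were at least 2-fold lower, against 9.78% of all genes. Their median difference was -2.69, from -3.24 for RRM2 to -1.92 for MCM6. The others were MKI67, TOP2A, PCNA, MCM2, MCM3, MCM4, MCM5, MCM7, CCNA2, CCNB1, CDK1, AURKA, BUB1, PLK1 and TYMS. Of 15 differentiation genes detected on both arrays, 13 were at least 2-fold higher, against 9.18% of all genes. The median difference of the 15 was 4.47, from 0.53 for KRT10 to 9.88 for SPRR3. KLK7 also stayed under 2-fold, and the others were SPRR1A, SPRR1B, SPRR2A, IVL, KRT4, KRT13, LCE3D, TGM1, FLG, DSC2, KLK5 and CNFN. What part the growth or differentiation state had in the differences of the members was not tested, and with 1 array for each vector it cannot be told apart from the vector.

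By complex, the medians ran from -0.62 in complex II, -0.55 in complex V, -0.52 in the assembly factors and -0.46 in complex I to -0.38 in complex III and -0.25 in complex IV. The quartiles of neighbouring complexes overlapped. Complex II has 4 members, and its quartiles of -1.20 and -0.10 spanned those of every other complex except the upper quartile of complex IV, -0.07. The quartiles of complex V, -0.68 and -0.38, also overlapped those of complex IV, -0.41 and -0.07. The order of complexes II, V, I, III and IV held under each of the other 12 settings of the processing except averaging of a gene's probes, under which complexes II and V came to -0.61 each.

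**Figure D2:**
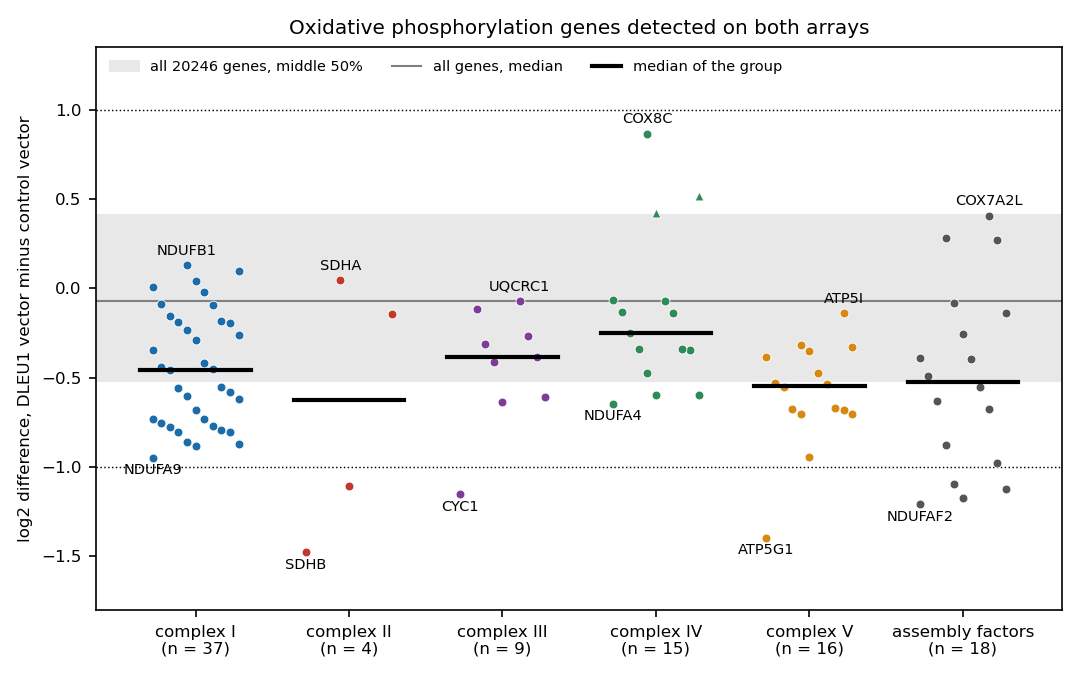
log2 difference, DLEU1 vector minus control vector (y axis), of each of the 99 members detected on both arrays, 1 point per gene, by complex. Triangles are the mitochondrial DNA-encoded COX1 and COX2, bars are group medians, the grey band holds the middle 50% of all 20246 genes, and dotted lines mark 2-fold. The 16 points of complex V and the 9 of complex III all lie below 0, and the complex IV median of -0.25, the one nearest to all genes, came to 0.01 under loess.

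Complex II, succinate dehydrogenase, split into a pair with nearly equal levels on both arrays and a lower pair. SDHA, the flavoprotein subunit that oxidises succinate, had levels of 6.19 and 6.23, control vector first. That probe lay in the strip, and the 3 other probes of SDHA, outside it, differed by -0.01, -0.05 and -0.13. SDHB, the iron-sulfur subunit that takes the electrons from SDHA, was at 5.11 and 3.63, a difference of -1.48 or 2.78-fold, the lowest of all members. By the brightest probe of each gene, SDHA and SDHB, which together form the catalytic head of the complex, were thus its highest and its lowest member. The rank of SDHA depends on the probe, as the dimmer probes of SDHC, from 0.07 to 0.15, were above every probe of SDHA.

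The membrane anchors differed in the same manner. SDHD was at 4.27 and 3.17, a difference of -1.10, and its 3 probes, which lie close together on the same transcript, ran from -1.32 to -1.10. SDHC was at 5.40 and 5.26, a difference of -0.14, with its 3 dimmer probes from 0.07 to 0.15, the last of these in the strip. The signs of SDHA and SDHC changed between settings of the processing, whereas SDHB stayed at least 2-fold lower under all 12 others. The SDHD difference was under 2-fold in 3 settings, at -0.91 under loess, -0.93 under quantile normalization and -0.99 with the 75th percentile taken over detected probes.
The lowest difference of all members, that of SDHB, rests on 1 probe alone. It had 1 spot, crosses an exon junction of NM_003000 and lies outside the strip.

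**Figure D3:**
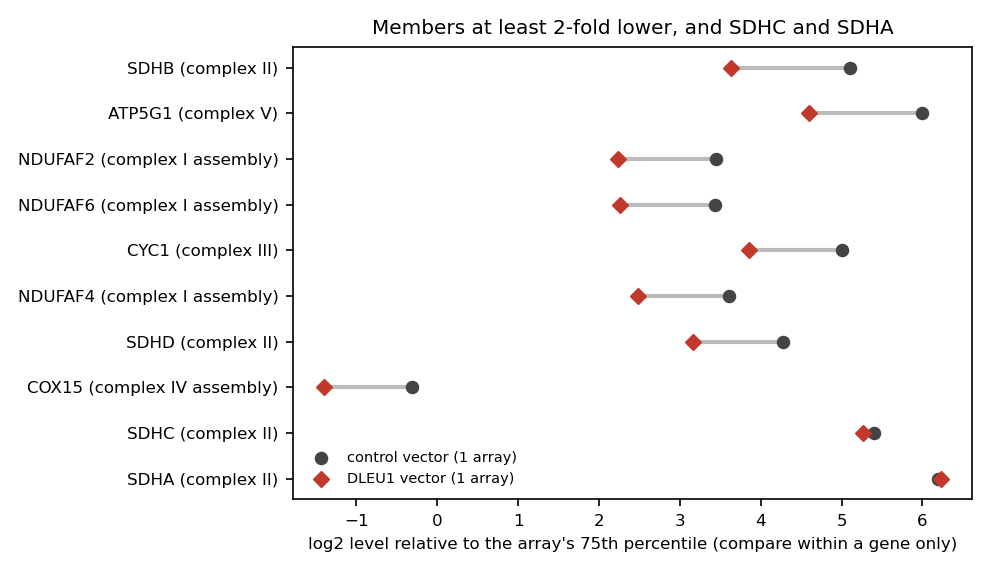
log2 level relative to the 75th percentile of the array (x axis) with the control vector (circles) and the DLEU1 vector (diamonds), 1 array each, for the 8 members at least 2-fold lower and for SDHC and SDHA. Each line joins the values of 1 gene, and levels compare within a gene only: the lines of SDHB and ATP5G1 are the longest, and those of SDHC and SDHA are nearly points.

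In complex V all 16 members detected were below 0, and 7 of the 16 were at least 1.5-fold lower, against 22% of all genes. Under quantile normalization and loess 15 of 16 were below 0, against 10443 and 10020 of all 20246 genes. ATP5G1 was at 5.99 and 4.60, a difference of -1.39 or 2.63-fold, and it stayed at least 2-fold lower under all 12 other settings. Its probe crosses an exon junction. ATP5G1, ATP5G2 and ATP5G3 are separate genes that encode the same mature c subunit, the proton-carrying rotor ring. ATP5G2 was at 7.35 and 6.97, a difference of -0.39, and ATP5G3 at 9.25 and 8.57, a difference of -0.67. All 3 were below 0, and the ATP5G1 difference was larger than either of the others by more than 0.391, the SD between probes of a member. That SD describes 1 probe around its gene, so a gap between 2 genes has a wider spread. Nor does the SD hold variation between cultures.

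The catalytic F1 head of the synthase was even in its differences. ATP5A1 (-0.54) and ATP5B (-0.68), which form the ring that makes ATP, and ATP5C1 (-0.53), the central shaft, differed from each other by less than that SD. ATP5D was at -0.47. ATP5E was at 9.18 and 8.83, a difference of -0.35, but a dim second probe of ATP5E for another transcript gave -1.36. Among the 8 genes of the stalk and membrane part the lowest was ATP5J2 (5.82 and 4.88, -0.94), measured in the strip, with a probe outside it at -1.02. The highest was ATP5I (-0.14), whose sign changed under some settings. ATP5L2 (-0.67) and ATP5L (-0.70) have near-identical sequences, so their signals may not be separate.

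In the setting used here, none of the 37 complex I subunits was at least 2-fold lower or higher, against 9.78% and 9.18% of all genes. NDUFA9 came to -1.06 under median scaling. With the spike-in probes set equal, several subunits were past 2-fold, among them NDUFA9 (-1.30) and NDUFV1 (-1.24). A dimmer probe of NDUFB8, outside the strip, gave -1.06, where the brightest gave -0.78. At least 1.5-fold lower were 15 of the 37 (40.5%), against 22% of all genes, and 33 were below 0. Under quantile normalization 28 of the 37 were below 0, and under loess 24, against 10443 and 10020 of all 20246 genes. Among the core subunits, which together hold the flavin, the iron-sulfur clusters and the ubiquinone site and are shared with bacteria, 6 were at least 1.5-fold lower. NDUFV1, which binds NADH and the flavin, was at 6.82 and 5.93, a difference of -0.88. NDUFS3 was at -0.77, NDUFS8 at -0.75, NDUFS7 at -0.73, NDUFV2 at -0.68 and NDUFS1 at -0.60.

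The 30 accessory subunits, which surround the core, had a median of -0.43. At least 1.5-fold lower were 9 of the 30 (30%), a share not far from the 22% of all genes. The lowest was NDUFA9 (4.04 and 3.09, -0.95), and the highest was NDUFB1 (5.28 and 5.41, 0.13). NDUFB9 was at 8.63 and 7.83, a difference of -0.80. NDUFB1, NDUFA10 (0.10), NDUFA1 (0.04) and NDUFB5 (0.01) were the 4 members of the complex above 0, and the signs of all 4 changed under some settings. NDUFS6 was measured with 10 spots, 1 of them in the strip, and these ran from -0.94 to -0.83 around a mean of -0.87 (SD over spots 0.0349). NDUFS5, also with 10 spots, ran from -0.25 to -0.11 around -0.19, so the 2 members differed by far more than the spots of either.

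Different probes of a complex I gene did not always go the same way. NDUFC2 was at -0.42 with its brighter probe and 0.83 with the other, and NDUFV3 at -0.79 and 0.47. The NDUFV3 probes belong to different transcripts (NM_021075 and ENST00000460259). NDUFA12 was at -0.34 outside the strip and -1.13 with a probe inside it. Over the 26 members with several probes detected on both arrays, 11 had probes of both signs, and the SD between probes of a member was 0.391, against 0.0800 between spots of a probe over 282 probes. Of all 134 member probes detected on both arrays, 112 were below 0.

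In complex III all 9 members were below 0, and 3 of the 9 were at least 1.5-fold lower, against 22% of all genes. Under quantile normalization 7 of the 9 were below 0, and under loess 6, against 10443 and 10020 of all 20246 genes. CYC1, the cytochrome c1 that hands electrons to cytochrome c, was at 5.01 and 3.86, a difference of -1.15 or 2.22-fold. It came to -0.92 under loess and -0.93 under quantile normalization, under 2-fold. UQCRFS1, the Rieske iron-sulfur protein, was at -0.61, so both nuclear-encoded redox subunits were in the lower part of the complex. The large core proteins UQCRC2 (5.62 and 5.21, -0.41) and UQCRC1 (5.35 and 5.28, -0.07) were nearer to 0, the latter being the highest of the complex. The 10 spots of UQCRC2 ran from -0.50 to -0.35. The 5 small subunits ran from -0.63 for UQCRQ (8.11 and 7.48) to -0.11 for UQCRB.

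Complex IV, cytochrome c oxidase, had the median nearest to that of all genes. It was -0.25, moved to 0.01 under loess and -0.02 under quantile normalization, and lay no farther than 0.01 from the median of all genes under either of these. Its 11 nuclear subunits found in most tissues were all below 0, from NDUFA4 (6.74 and 6.09, -0.65) to COX6C (-0.06), with a median of -0.34, but the signs of 5 of them, COX5B, COX6A1, COX6C, COX7A2 and COX7C, changed under some settings. Of all 15 members of the complex detected on both arrays, 12 were below 0, against 8 under quantile normalization and 7 under loess. Of all 20246 genes, 10443 were below 0 under quantile normalization and 10020 under loess. COX4I1, the large regulatory subunit, was at 7.07 and 6.59, a difference of -0.48. COX6A1 was at 9.14 with the control vector and differed by -0.14. COX7C, measured with 10 spots, ran from -0.18 to -0.03. Without the mitochondrial DNA-encoded COX1 and COX2 the median of the complex was -0.34.

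The isoforms of complex IV subunits known from muscle, lung, testis or low oxygen were mostly dim. COX4I2 was detected with the control vector only, at -3.79 and -4.52, and was at least 1.19-fold lower, a bound close to no difference. COX6B2 was at 4.58 and 4.24, a difference of -0.34, with a second probe at 0.13. COX8C, a testis isoform, was the highest of all members at -2.78 and -1.91, a difference of 0.86.

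Of the 19 assembly factors and accessory genes, 18 were detected on both arrays, and 15 of these were below 0. Under quantile normalization 13 of the 18 were below 0, and under loess 12, against 10443 and 10020 of all 20246 genes. At least 2-fold lower were 4 of the 18 (22.2%), against 9.78% of all genes. All 8 factors of complex I were below 0, with a median of -0.83. NDUFAF2 was at 3.44 and 2.24, a difference of -1.21, and its other probe gave -1.26. NDUFAF6 was at 3.43 and 2.26, a difference of -1.17, with another probe at -0.84. NDUFAF4 was at 3.60 and 2.48, a difference of -1.12. NDUFAF5, which hydroxylates an arginine of NDUFS7, was at 3.16 and 2.18 and just short of 2-fold (-0.98). ATP5SL, now called DMAC2 and known to act on complex I, was at 4.91 and 4.23, and its 10 spots ran from -0.74 to -0.61 around a mean of -0.68. NDUFAF1 (-0.14) and NDUFAF3 (6.71 and 6.45, -0.26) were the nearest to 0. Of the 4 at least 2-fold lower, NDUFAF6 stayed so under all 12 other settings, NDUFAF2 came to -0.99 with the nearest spots subtracted and NDUFAF4 to -0.96 under loess and -0.98 under quantile normalization.

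Complex IV factors had a median of -0.44. COX15, which makes the heme A of the oxidase, was at -0.30 and -1.40, a difference of -1.10, in the strip. Its probe outside the strip gave -0.86, and COX15 was under 2-fold in 5 of the 12 other settings, with differences from -0.98 to -0.71, the last under normexp. COX10, which acts a step before it in heme A synthesis, was at -0.16 and -0.55, a difference of -0.39. COX11, a copper chaperone, was at 4.06 and 3.18, a difference of -0.88, but its 4 probes ran from -0.88 to 1.15, the highest being a dim probe for another transcript. COX17 (6.37 and 5.88, -0.49), which carries copper to the complex, was measured in the strip. COX18, which inserts the COX2 protein into the membrane, was at -3.43 and -4.42, detected with the control vector only and at least 1.53-fold lower. The highest of these was COX19, at a difference of 0.28, whose sign changed under some settings. Counted apart from them, COX7A2L, which joins complexes III and IV, was at 5.63 and 6.04, and its difference of 0.41 was the highest of the 18 assembly factors and accessory genes.

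Of the mitochondrial DNA-encoded genes, COX1 and COX2 carry names that the rule took, and 9 more had a probe. They are transcribed inside the mitochondrion from long precursors that are then cut into single RNAs. The median of the 11 was 0.47, with 7 above 0. All 5 in complexes III to V were above 0. CYTB, the cytochrome b of complex III, was at 7.56 and 8.28, a difference of 0.72. The catalytic subunits of complex IV were at 6.79 and 7.21 for COX1 (0.42) and at 8.18 and 8.69 for COX2 (0.51). The file places the COX1 probe at chr1:567567-567626 (hg19), in a stretch of the nuclear genome known to hold a copy of mitochondrial DNA, so its signal cannot be assigned to one of them. ATP6 was at 7.68 and 8.33 (0.65) and ATP8 at 5.73 and 6.58 (0.86), both in the membrane part of complex V.

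The 6 mitochondrial DNA-encoded genes of complex I went both ways. ND5 was at 3.51 and 4.15 (0.64), and ND4L at 7.77 and 8.24 (0.47). ND3 was at 7.38 and 7.04 (-0.33), ND2 at 6.22 and 5.74 (-0.48), ND1 at 4.75 and 3.69 (-1.06) and ND6 at 2.76 and 1.58 (-1.18). ND6 is the one gene of these on the other strand of the mitochondrial DNA. ND1 and ND6 were at least 2-fold lower, while the nuclear subunits of the same complex had a median of -0.46. The spread over these 6 genes, from -1.18 to 0.64, was wider than that over the 37 nuclear subunits, from -0.95 to 0.13. The nuclear subunits of complexes III, IV and V had medians of -0.38, -0.34 and -0.55, opposite in sign to all 5 mitochondrial DNA-encoded genes of these complexes. Each of the 11 genes had 1 probe with 1 spot outside the strip.
The probes of 2 genes above 0 and 2 below 0 are shown as examples of the contrast within mitochondrial DNA, in which each of the 11 genes was measured by 1 probe (hg19 positions of the file, RNA strand).
CYTB (chrM:15588-15646, plus strand): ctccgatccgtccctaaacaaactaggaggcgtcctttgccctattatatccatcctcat
COX2 (chrM:7987-8046, plus strand): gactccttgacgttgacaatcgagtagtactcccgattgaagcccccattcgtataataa
ND3 (chrM:10200-10259, plus strand): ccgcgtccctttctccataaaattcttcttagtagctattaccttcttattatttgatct
ND1 (chrM:3369-3428, plus strand): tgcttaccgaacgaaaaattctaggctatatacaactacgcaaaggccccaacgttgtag

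**Figure D4:**
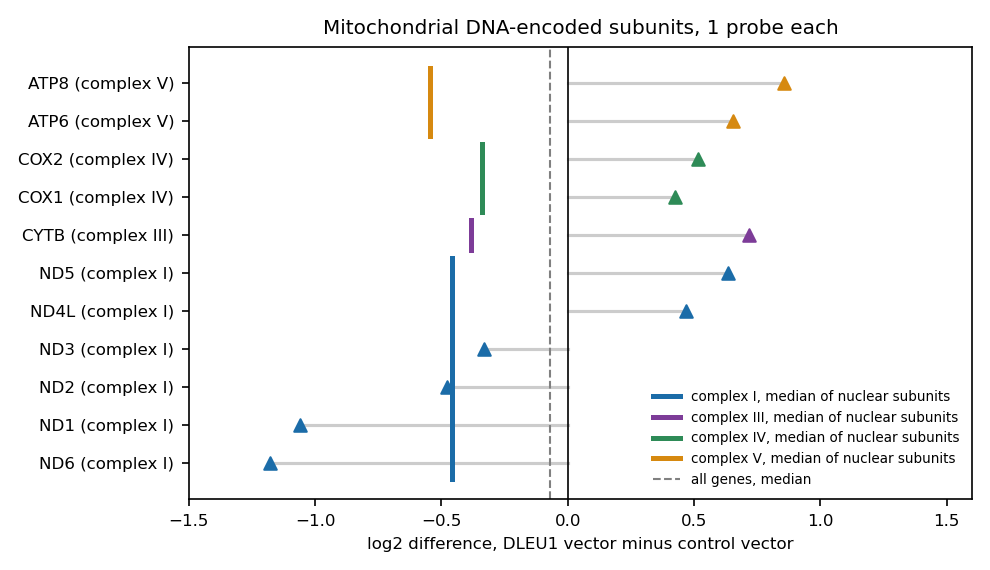
log2 difference, DLEU1 vector minus control vector (x axis), of the 11 mitochondrial DNA-encoded genes (triangles, 1 probe each), grouped by complex. Thick vertical bars are the medians of the nuclear subunits of the same complex, and the dashed line is the median of all genes: the triangles of complexes III to V lie right of 0 and the bars left of it.

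Genes of the pathway that do not carry these names were also mostly below 0. Of 40 further assembly factors, 35 were below 0, against 54.2% of all genes, and the median was -0.62. The count was 32 under quantile normalization and 32 under loess, against 10443 and 10020 of all 20246 genes. At least 2-fold lower were 8 (20.0%), against 9.78% of all genes. SLIRP (7.47 and 6.05, -1.42), which binds mitochondrial mRNAs with LRPPRC (-0.91), was the lowest. TMEM126A (-1.21), COA7 (-1.20), FOXRED1 (-1.14), UQCC3 (-1.14), CMC2 (-1.14), BCS1L (-1.10) and TMEM126B (-1.08) were the others. BCS1L inserts the Rieske protein into complex III. The highest was TMEM261 (0.71). The complex II factors SDHAF1 (-0.51), SDHAF2 (-0.29), SDHAF3 (-0.63) and SDHAF4 (0.20) were below 0 in 3 of 4 cases.

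Among 18 carrier, supercomplex and accessory genes all were below 0, against 54.2% of all genes, with a median of -0.50. The count was 15 under quantile normalization and 14 under loess, against 10443 and 10020 of all 20246 genes. At least 2-fold lower were 4 (22.2%), against 9.78% of all genes. PDSS1, which makes the side chain of ubiquinone, the carrier that takes electrons from complexes I and II, was at 3.47 and 0.69, a difference of -2.79. COQ2 (0.70 and -0.84, -1.54), which joins that chain to the ring, and COQ3 (1.91 and 0.70, -1.21), a methyltransferase of the same route, were also lower. CYCS, the cytochrome c that carries electrons from complex III to complex IV, was at 5.76 and 4.47, a difference of -1.29. The highest was COQ5, at 3.91 and 3.90. PDSS1 was farther below 0 than any of the 99 members.

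Of 18 regulators of mitochondrial biogenesis detected on both arrays, 17 were below 0, against 54.2% of all genes, with a median of -0.75. The count was 15 under quantile normalization and 15 under loess, against 10443 and 10020 of all 20246 genes. At least 2-fold lower were 4 (22.2%), against 9.78% of all genes. PPRC1, a coactivator related to PGC-1alpha, was at 4.06 and 2.62 (-1.44). POLRMT, the RNA polymerase that transcribes mitochondrial DNA, was at 3.58 and 2.38 (-1.19). TFB2M, which opens the promoter with POLRMT, was at 2.81 and 1.79 (-1.02, in the strip). C10orf2, the helicase Twinkle, was at 0.42 and -0.64 (-1.06). TFAM, which packages mitochondrial DNA, was at 5.43 and 4.45 (-0.98). PPARGC1A, the gene for PGC-1alpha, was detected on neither array. Of the factors whose letters were searched in the promoters, NRF1 was at -0.81 and -1.52 (-0.71), GABPB1 at 1.38 and 0.52 (-0.86), YY1 at 5.08 and 4.71 (-0.37), and GABPA at 2.43 and 2.42. ESRRA, the estrogen-related receptor alpha, was the highest of the list at 6.14 and 6.69 (0.56).

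Of 24 other mitochondrial genes for import, folding, pores and shape, 23 were below 0, against 54.2% of all genes, with a median of -0.78. The count was 21 under quantile normalization and 21 under loess, against 10443 and 10020 of all 20246 genes. At least 2-fold lower were 11 (45.8%), against 9.78% of all genes. The lowest was TOMM40 (2.00 and 0.17, -1.83), the import channel, followed by CHCHD3 (-1.77, in the strip) and TIMM50 (-1.49). PHB (-1.43), HSPD1 (-1.40), TIMM44 (-1.37), HSPA9 (-1.25), SLC25A4 (-1.24), TOMM22 (-1.06), HSPE1 (-1.05) and VDAC3 (-1.04) were the others. HSPD1, HSPE1 and HSPA9 are chaperones that fold imported proteins. CS, citrate synthase, often used as a measure of mitochondrial content, was at 6.47 and 6.04 (-0.43), and the highest was SLC25A6 (0.27).

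A promoter of 300 bases, from 250 before to 50 after the start, was given in the RefSeq table for 84 of the 105 members, and these were searched on both strands for 6 short sequences. Each was searched by itself, so matches may overlap. The NRF1 letters were in 19 of the 84 (22.6%), against 8.58% of 15843 protein-coding promoters and 6.28% of all 27305. The GABP letters were in 23 (27.4%), against 14.2% and 10.67%. The letters AAGATGG, of the factor YY1, were in 17 (20.2%), against 6.40% and 6.06%, and AAGGTCA in 9 (10.71%), against 3.13% and 3.97%. CCAAT was in 30 (35.7%), against 36.4% and 35.7%, and the E-box CACGTG in 9 (10.71%), against 8.88% and 7.43%. Of the 8 members at least 2-fold lower, 6 had a promoter in the table. SDHB, SDHD, COX15 and NDUFAF4 held GABP letters, SDHB and SDHD AAGGTCA, SDHD NRF1 letters, SDHB those of YY1, ATP5G1 and NDUFAF2 CCAAT, and ATP5G1 the E-box. A match says that the letters are there, not that a factor binds.

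**Figure D5:**
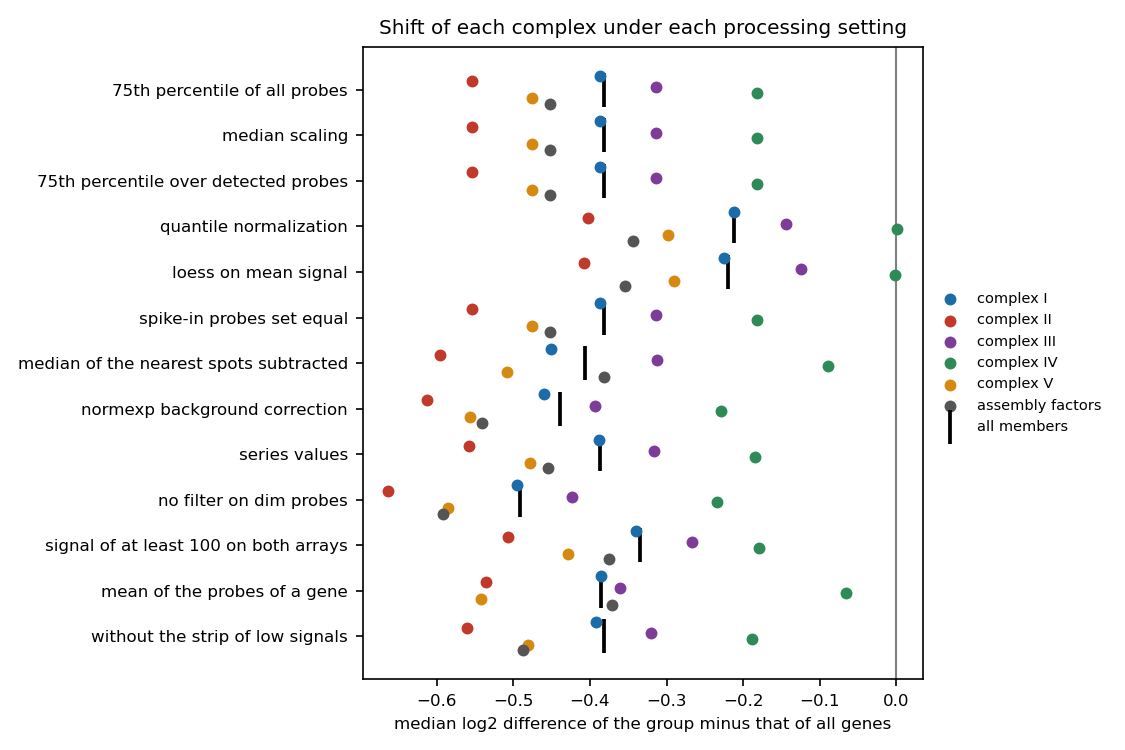
Median log2 difference of each complex and of all 99 members minus the median of all genes (x axis), for the setting used here, scaling by the 75th percentile of all probes, and for each of the 12 other settings (y axis). Complexes I, II, III and V and the assembly factors lie left of 0 in every row, nearest to it under quantile normalization and loess, where complex IV comes to 0.00.

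The distances of the medians from all genes ranged over these settings from -0.66 to -0.40 in complex II, -0.58 to -0.29 in complex V, -0.50 to -0.21 in complex I, -0.42 to -0.12 in complex III and -0.23 to 0.00 in complex IV. For the mitochondrial DNA-encoded genes they ranged from 0.43 to 0.74. Scaling by the spike-in probes moved the median of all genes to -0.43 and left these distances as they were.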

How the data were processed

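Expression was measured in 2 samples of Ca9-22 cells on SurePrint G3 Human GE arrays, 1 for each vector. The deposited intensity values were made with Agilent Feature Extraction (10.7 per the labels, 10.7.3.1 per the file headers), with local background subtraction, spatial detrending and a surrogate for dim signals. The authors analysed the arrays in GeneSpring. The deposited series values held the same intensity within 0.497%, and neither file was normalized between arrays. Probe positions were those of the files (hg19).

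Control spots and spots marked as outliers (84 and 103) were left out, no spot was saturated (0), and spots of a probe were averaged on the log2 scale. The 75th percentile over 58201 probes was subtracted (7.92 for the control vector, 7.88 for DLEU1). A probe was detected where most of its spots were marked as well above background, which held for 27731 and 27969 probes and for 26279 on both arrays. Of the probes detected on both arrays, the brightest gave the value of a gene. For genes detected on 1 array, the fold is a bound: the dim side was set to its own signal or to the lowest signal of any detected probe, whichever was higher. The call was 2-fold, and 1.5-fold and 3-fold were alternatives. Python 3.11.15, pandas 2.3.3, statsmodels 0.14.6 and R 4.3.3 with limma 3.58.1 (normexp, offset 50) were used, and the steps were tested on simulated data.

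The members, lists, the rule for named genes and the alternatives were chosen with earlier results of these data known. Named were DLEU1, every member past 2-fold or detected on 1 array only, the highest, lowest and brightest member of each complex, the complex II genes and CYC1, members whose probes differed in sign with either past 0.5, the extremes and the genes past 2-fold of each other list, and the mitochondrial DNA-encoded genes with a probe. Other members were named after their values were seen, for their role in a complex. Of the 105 members, 105 matched a current RefSeq symbol, 20 of them under a newer name. FAM36A, listed with the other assembly factors, is COX20 and was counted as a member. The number of arrays limits the precision: the spread between spots and probes holds no variation between cultures. A few genes and 1 probe sequence are not reported here.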

Additional observations from a re-analysis of the deposited data

How the results depend on the processing

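The members' values rest on 1 array a vector, so leaving out a replicate was not possible. No paired analysis was possible because each group has 1 array. Of 199 results recomputed under alternatives, 106 moved by less than the SD between spots of a probe or, for counts, by less than 1.5 times, 92 moved by more, and 1 changed sign. The cause was not tested, except that scaling by the median, by detected probes or by spike-ins adds 1 constant to every difference. The alternatives without COX1 and COX2 and with NDUFA4 in complex I were chosen after seeing the data. Scaling by the median gave all members -0.56, complex I -0.57, complex II -0.74, complex III -0.50, complex IV -0.37, complex V -0.66, assembly factors -0.64, mitochondrial DNA-encoded genes 0.35, other assembly factors -0.73, carriers -0.61, regulators -0.87, structure genes -0.89, proliferation -2.80 and differentiation 4.35. The 75th percentile over detected probes gave all members -0.34, complex I -0.34, complex II -0.51, complex III -0.27, complex IV -0.14, complex V -0.43, assembly factors -0.41, mitochondrial DNA-encoded genes 0.58, other assembly factors -0.51, carriers -0.39, regulators -0.64, structure genes -0.67, proliferation -2.58 and differentiation 4.58. Quantile normalization gave all members -0.24, complex I -0.24, complex II -0.43, complex III -0.17, complex IV -0.025, complex V -0.32, assembly factors -0.37, mitochondrial DNA-encoded genes 0.68, other assembly factors -0.49, carriers -0.35, structure genes -0.57, proliferation -2.60 and differentiation 4.62. Loess (span 0.3), which turned the sign of complex IV, gave all members -0.21, complex I -0.22, complex II -0.40, complex III -0.12, complex IV 0.0069, complex V -0.28, assembly factors -0.35, mitochondrial DNA-encoded genes 0.75, other assembly factors -0.46, carriers -0.33, regulators -0.65, structure genes -0.55, proliferation -2.56 and differentiation 4.70. With the 8 spike-in probes set equal, the medians were all members -0.81, complex I -0.81, complex II -0.98, complex III -0.74, complex IV -0.61, complex V -0.90, assembly factors -0.88, mitochondrial DNA-encoded genes 0.11, other assembly factors -0.98, carriers -0.86, regulators -1.11, structure genes -1.14, proliferation -3.04 and differentiation 4.11. Subtracting the median of the nearest 100 spots gave complex III -0.29, complex IV -0.069, assembly factors -0.36, other assembly factors -0.49, carriers -0.41, regulators -0.67 and proliferation -2.57. Normexp gave proliferation -2.51 and differentiation 3.95. No filter on dim probes gave differentiation 3.99. A signal of at least 100 gave differentiation 3.27. Averaging the probes of a gene gave complex IV -0.14, assembly factors -0.44, carriers -0.41, proliferation -2.53 and differentiation 5.10. Leaving out the strip gave carriers -0.60. Leaving out COX1 and COX2 gave complex IV -0.34. At least 2-fold lower were 5 members under quantile normalization, 5 under loess and 31 with spike-ins. The threshold of 1.5-fold gave 38 lower and 1 higher, and that of 3-fold gave 0 lower. Of the 99 members, 30 changed sign under at least 1 alternative, with differences from -0.42 to 0.28. Signal over background limits the 6 members not detected on both arrays.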
